A study of Mus musculus with 12 samples.

Results

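Carbonic anhydrases catalyse the interconversion of carbon dioxide and water with bicarbonate and protons. The 9 genes described here are Car1, Car2, Car3, Car4, Car5b, Car6, Car8, Car12 and Car13, taken as the rows of those symbols among the 32121 genes of the count table. All 9 were found, out of 16 carbonic anhydrase genes in the annotation, and the other 7 are given for comparison. The members were chosen by measured values in part, since Car6 was high in 1 of the SB spleens, and in part because Car1 and Car2 are red cell genes. The level of Car6 across genotypes and among SB animals is therefore given as a description without a test.

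The study cut 2 pieces from each spleen of 6 mice and compared their poly-A RNA, to read how clonal each spleen was as a whole. SB animals 1 to 3 carried VEC-Cre, SB Transposase and the onc2 transposon, and control animals 1 to 3 were WT, all of the strain C57BL/6, with no age in the labels. VEC-Cre is driven by the promoter of VE-cadherin, a gene of endothelial cells that is also active in the endothelium from which blood stem cells arise, so the transposon can move in blood cells as well as in vessels. Insertion sites were not analysed here. SB animals 1 and 2 expressed Xist, while SB animal 3 and the 3 controls expressed genes of the Y chromosome, so genotype and sex are partly confounded. Libraries held 14320833 to 22031026 counts. Expression is given as CPM, the counts of a gene relative to the total of its library after TMM scaling (trimmed mean of M values).

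Red blood cells use carbonic anhydrases to turn carbon dioxide into bicarbonate, which the anion exchanger Slc4a1 then carries out of the cell in exchange for chloride. Car2 is the fast cytosolic enzyme of many tissues, and Car1 is an abundant cytosolic enzyme of red cells. The family also has enzymes on the cell surface (Car4, Car12), in mitochondria (Car5b) and in secretions such as saliva (Car6). Car8 has lost the enzyme activity and binds the inositol trisphosphate receptor.

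Promoter windows of 250 bases before to 50 bases after the gene start, from RefSeq on GRCm38.p6, were at hand for 4 of the 9 members. The windows of Car6 and Car4 are shown because the RNA of both was highest in SB animal 3, in both pieces. Capitals mark matches to the motifs searched. The Car6 window lies on the minus strand at chr4:150201086-150201385 and the Car4 window on the plus strand at chr11:84957504-84957803.
Car6: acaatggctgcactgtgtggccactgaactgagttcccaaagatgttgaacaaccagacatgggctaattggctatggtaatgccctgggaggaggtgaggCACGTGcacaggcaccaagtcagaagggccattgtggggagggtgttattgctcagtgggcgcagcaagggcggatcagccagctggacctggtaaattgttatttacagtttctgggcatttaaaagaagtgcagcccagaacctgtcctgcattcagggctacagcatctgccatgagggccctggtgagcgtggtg
Car4: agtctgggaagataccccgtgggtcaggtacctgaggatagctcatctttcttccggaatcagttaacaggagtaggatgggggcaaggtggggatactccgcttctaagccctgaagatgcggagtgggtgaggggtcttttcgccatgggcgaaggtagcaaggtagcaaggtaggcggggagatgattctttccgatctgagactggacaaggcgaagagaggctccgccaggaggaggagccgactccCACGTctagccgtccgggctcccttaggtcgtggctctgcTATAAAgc

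Each motif was searched on both strands. For blood cell factors these were AGATAA, the letters of the erythroid factor Gata1, CCACACCC, those of the factor Klf1, and CCGGAAGT, those of Ets family factors. For signals these were ACGTG, the core of the hypoxia response element, and TGACGTCA, the cyclic AMP response element. The E-box CACGTG and the core promoter element TATAAA completed the search. The Car6 window held CACGTG at base -149 from the RefSeq gene start, and CACGTG contains ACGTG on both strands. The Car4 window held ACGTG on the minus strand at base 3 and TATAAA at base 43, after the RefSeq gene start. The gene coordinates given below come from GENCODE and place the starts of Car6 and Car4 elsewhere. By those coordinates the Car6 match lies inside the gene, and ACGTG in the Car4 window lies before its start. ACGTG was found in 19.6% of 32851 windows, CACGTG in 7.15% and TATAAA in 13.6%, so none of these matches is rare. The Car5b and Car12 windows held none of the 7 motifs. The Gata1 letters occur in 11.2% of windows, the Klf1 letters in 3.56%, the Ets letters in 3.89% and the cyclic AMP letters in 1.79%, and none of the 4 member windows held them. A match is a description of the letters only.

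Car1 and Car2 were higher in SB spleens than in control spleens. Car1 (ENSMUSG00000027556, chr3:14766216-14808368, minus strand, GRCm38) had 252 and 226 CPM in the pieces of SB animal 1, 668 and 673 CPM in SB animal 2, and 1417 and 1318 CPM in SB animal 3. In controls it had 96.5 and 132 CPM in animal 1, 49.5 and 171 CPM in animal 2, and 27.9 and 77.9 CPM in animal 3. All 6 SB pieces lay above all 6 control pieces, and SB animal 3 was the highest. With the pieces of each spleen summed, Car1 averaged 768 ± 578 CPM in SB and 91.2 ± 36.3 CPM in controls (SD, n = 3 animals each), a log2 change of 3.08 (SE 0.70, edgeR quasi-likelihood test, Benjamini-Hochberg adjusted p = 0.0335).

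Car2 (ENSMUSG00000027562, chr3:14886273-14900770, plus strand) had 899.6 and 908 CPM in SB animal 1, 2864 and 2648 CPM in SB animal 2, and 1822 and 1776 CPM in SB animal 3. In controls it had 499.9 and 599 CPM in animal 1, 215 and 544 CPM in animal 2, and 123 and 277.5 CPM in animal 3. The groups again did not overlap, but the order of the SB animals differed, with animal 2 highest for Car2 and animal 3 for Car1. Car2 averaged 1829 ± 917 CPM in SB and 372 ± 181 CPM in controls, a log2 change of 2.30 (SE 0.55, adjusted p = 0.0390). In bulk tissue, more cells of a type and more RNA per cell cannot be told apart.

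Both calls were close to the threshold and rested on SB animal 3 and on each of the controls. Without SB animal 3 the adjusted p was 0.0561 for Car1 and 0.0732 for Car2, and without any single control it was 0.115 to 0.133 for Car1 and 0.0880 to 0.150 for Car2, with log2 changes that stayed between 1.97 and 3.27 in these 4 fits. SB animal 3 alone against the controls, all expressing Y-linked genes, gave a log2 change of 3.92 for Car1 and 2.29 for Car2, but this is 1 animal, assumed to vary like the controls, so its genotype cannot be told apart from the animal itself. For scale, 18.3% of the 17328 genes tested were called between genotypes and 8.59% were called higher in SB, while all 6 SB pieces lay above all 6 control pieces for 12.9% of genes tested. Over all genes tested the median log2 change was 0.11.

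**Figure D1:**
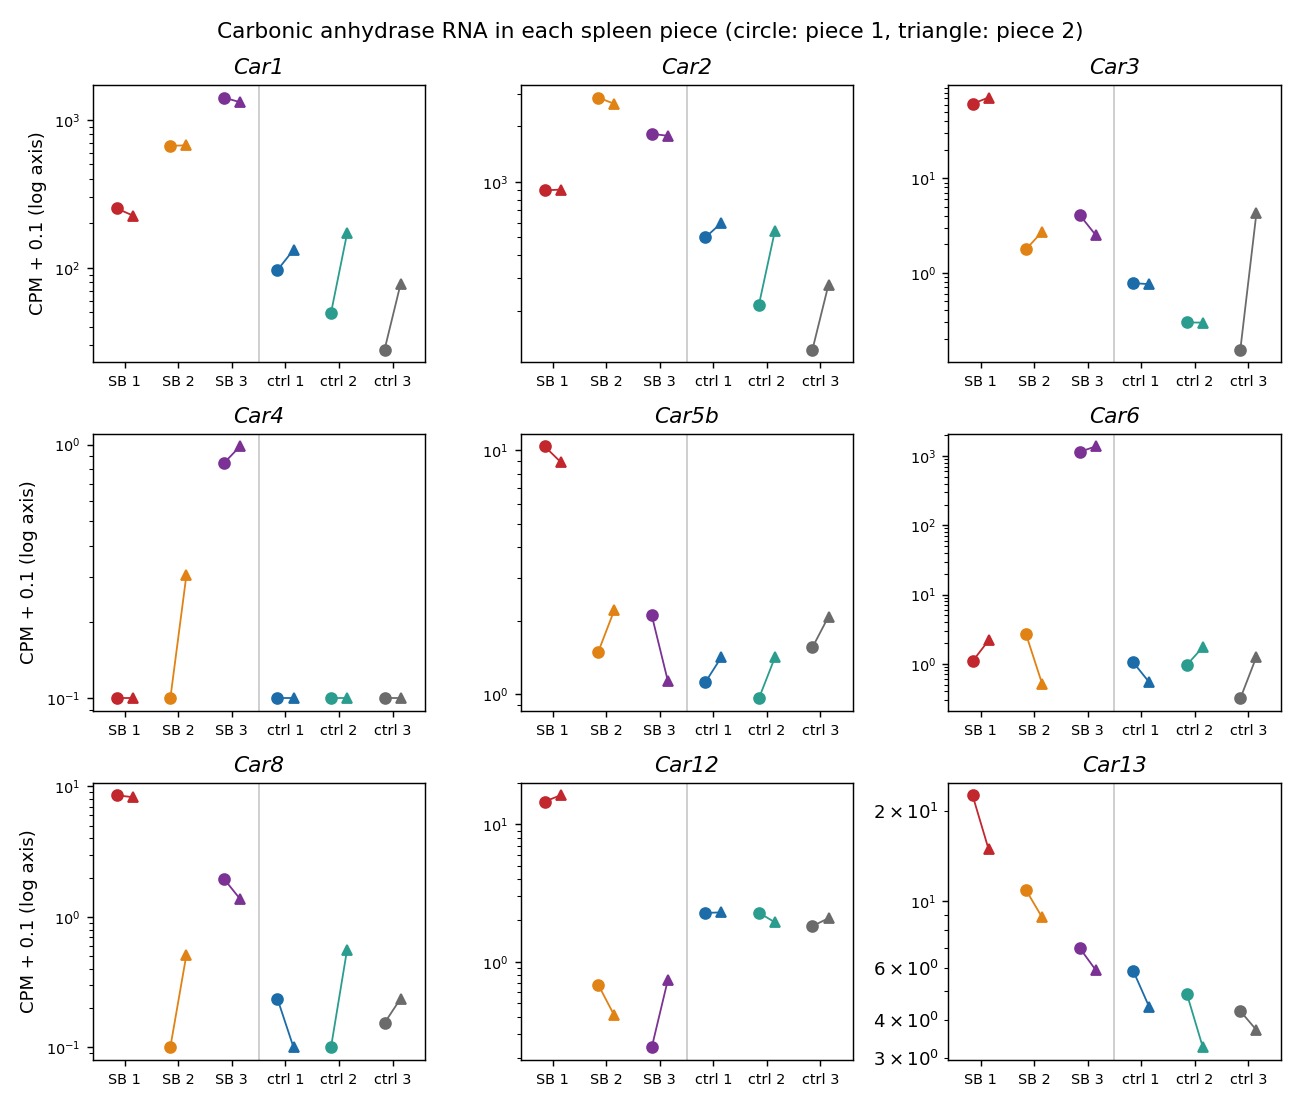
Each panel shows the CPM + 0.1 of 1 gene (log axis) in the pieces of the 3 SB and 3 control spleens, with a circle for piece 1, a triangle for piece 2 and a line joining the pieces of a spleen. Car1, Car2 and Car13 separate the genotypes, Car6 stands at 1150 and 1384 CPM in SB animal 3 alone, and Car3, Car5b, Car8 and Car12 are highest in SB animal 1.

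The rise of Car1 and Car2 stood beside unequal changes among other red cell genes. Of 28 erythroid genes measured and tested, edgeR called 7 higher in SB and 0 lower, where it called 8.59% of all genes tested higher. The median log2 change of the 28 was 2.07, and DESeq2 called 15 of them higher and 0 lower. The 6 with the smallest adjusted p were the transcription factors Tal1 (log2 change 3.53, adjusted p = 0.00837) and Nfe2 (3.16, 0.0119), the membrane ammonia and gas channel subunit Rhag (3.31, 0.0157), the actin-capping protein Tmod1 (3.05, 0.0330), the erythropoietin receptor Epor (2.51, 0.0373) and the transferrin receptor Tfrc (2.16, 0.0427). The anion exchanger Slc4a1 and the adult beta globin Hbb-bs did not pass. Slc4a1 was at 479 CPM in SB animal 1, 4480 CPM in SB animal 2 and 64.1 CPM in SB animal 3, against 231 to 757 CPM in controls (log2 change 1.80, SE 1.37, adjusted p = 0.391). Hbb-bs was at 482 to 24300 CPM in SB and 16600 to 34900 CPM in controls (log2 change -1.60, SE 1.37, adjusted p = 0.445). Summed over the 28 erythroid genes, the mean CPM in SB was 0.552 times that of controls. Without Hbb-bs, the largest part, it was 0.883 times.

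The 3 SB spleens differed in how much Car1 and Car2 RNA they held for a given amount of globin or Slc4a1 RNA. Car1 counts were 0.172 and 0.155 times the Hbb-bs counts in SB animal 1, 0.0303 and 0.0262 times in SB animal 2, and 3.07 and 2.69 times in SB animal 3, against 0.00242 to 0.00408 times in control pieces. Car2 counts were 1.54 and 2.64 times the Slc4a1 counts in SB animal 1, 0.625 and 0.606 times in SB animal 2, and 26.5 and 30.9 times in SB animal 3, against 0.725 to 0.936 times in control pieces. For both genes the ratio to Hbb-bs was above every control piece in all 6 SB pieces. The ratio of Car2 to Slc4a1 was above the controls in SB animals 1 and 3 and below them in SB animal 2. Car1 counts were 0.432 and 0.656 times the Slc4a1 counts in SB animal 1, 0.146 and 0.154 times in SB animal 2, and 20.6 and 22.9 times in SB animal 3, against 0.141 to 0.249 times in control pieces, so SB animal 2 lay within the controls. Against Rhag the order was another: Car2 stood at 3.50 to 5.35 times in SB pieces, all below the 7.56 to 11.7 times of control pieces. Car1 stood at 1.09 to 1.33 times Rhag in SB animals 1 and 2 and at 2.72 and 2.84 times in SB animal 3, against 1.68 to 2.66 times in control pieces. Against Tfrc, a gene of dividing red cell precursors and other dividing cells, Car2 stood at 1.51 to 2.27 times in SB pieces and at 0.942 to 1.86 times in control pieces, and these ranges overlapped. These ratios are of counts and depend on transcript length, so only their differences between libraries can be read.

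Counts of Car1 relative to Car2 stood apart in SB animal 3. Their ratio was 0.280 and 0.249 for SB animal 1, 0.233 and 0.254 for SB animal 2, and 0.778 and 0.742 for SB animal 3, against 0.193 to 0.314 in control pieces. Only SB animal 3 lay outside the control range. The ratio was not tested.

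**Figure D2:**
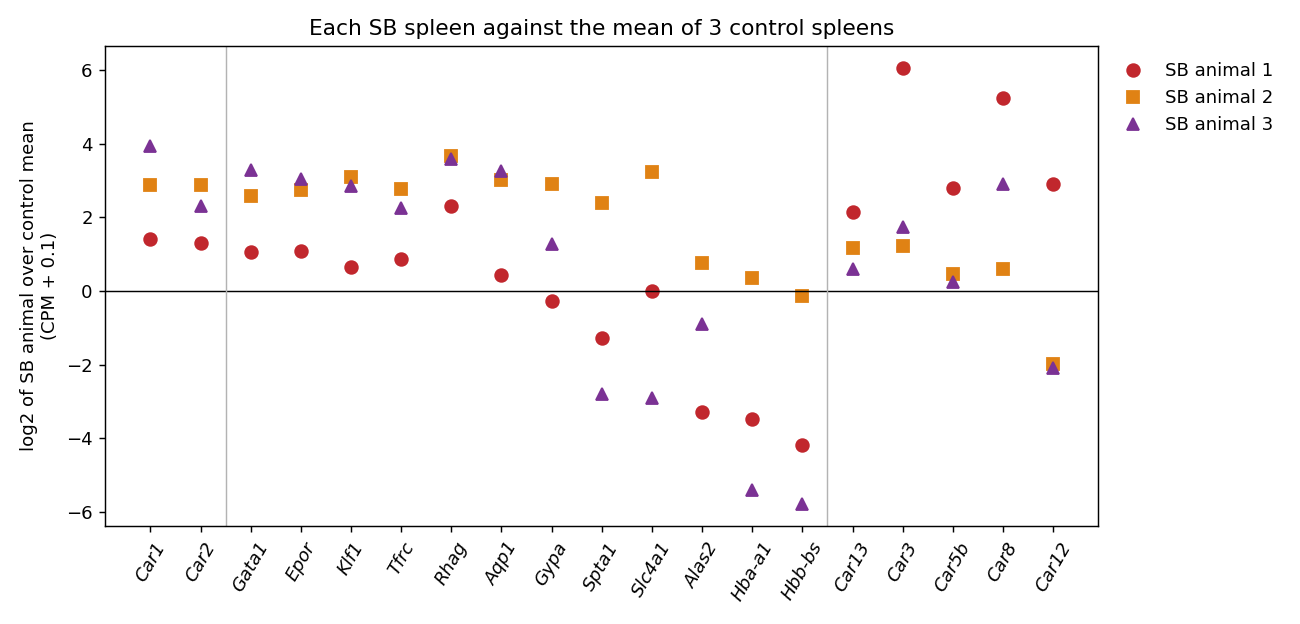
Points give the log2 ratio of the CPM + 0.1 of each SB spleen over the mean of the 3 control spleens, for Car1 and Car2 (left), 12 genes of the erythroid and transport lists (middle) and 5 other members (right). Car1, Car2, Gata1, Epor, Klf1, Tfrc, Rhag and Aqp1 lie above 0 in all 3 SB spleens, and the globins lie far below 0 in SB animals 1 and 3.

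Over the 12 libraries, the genes whose log2 CPM followed Car1 most closely among 11064 named protein-coding genes averaging 5 CPM or more were the erythroid transcription factor Gata1 (Pearson r = 0.995), Lrrc32 (0.988), the phospholipid transporter Abcb4 (0.988), the protease Sppl2b (0.985) and Epor (0.985). For Car2 they were Kif14 (0.992), Gpsm2 (0.992), Kif18b (0.991), Cdc6 (0.990) and Aspm (0.989). Kif14, Kif18b, Gpsm2 and Aspm act in cell division at the spindle and Cdc6 in DNA replication. The log2 CPM of Car1 and Car2 had a Pearson r of 0.946 with each other, and the Hbb-bs correlation was -0.553 for Car1 and -0.352 for Car2. The libraries come from 6 animals only and share genotype, so these values describe likeness. Other measures picked largely other genes from the many near the top: with Spearman's rho 0 of the 5 remained for each, and over the 6 animals 2 remained for Car1 and 3 for Car2.

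Car1, Car2, Car3 and Car13 sit side by side in 259 kb of chromosome 3 (14641727 to 14900770), and the SB animal with the highest level was not the same for all of them. Car13 (ENSMUSG00000027555, chr3:14641727-14663002, plus strand), a cytosolic enzyme, had 22.5 and 14.8 CPM in SB animal 1, 10.8 and 8.73 CPM in SB animal 2 and 6.88 and 5.79 CPM in SB animal 3, against 3.15 to 5.75 CPM in control pieces. The groups did not overlap, by a narrow margin between SB animal 3 and control animal 1. All SB pieces lay above all control pieces for 12.9% of genes tested. The order of the SB animals for Car13 was the reverse of that for Car1. The log2 change of Car13, 1.47 (SE 0.46, adjusted p = 0.0749), did not pass, although DESeq2 called it (adjusted p = 0.0163). Outside the cluster, 1810022K09Rik on the Car13 side was at 22.2 ± 9.74 CPM in SB and 21.2 ± 0.351 CPM in controls (adjusted p = 0.901).

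Car3 (ENSMUSG00000027559, chr3:14863512-14872523, plus strand) is the cytosolic enzyme abundant in muscle and fat. It had 61.3 and 71.5 CPM in SB animal 1, 1.68 and 2.62 CPM in SB animal 2 and 4.0 and 2.40 CPM in SB animal 3. Controls held 0.677 and 0.657 CPM in animal 1, 0.198 and 0.197 CPM in animal 2, and 0.0538 and 4.16 CPM in animal 3. SB animal 1 stood far above every other spleen, and the rest of the SB pieces overlapped the second piece of control animal 3. The log2 change between genotypes was 4.74 (SE 1.65, adjusted p = 0.0987), and without SB animal 1 it was 1.61 (adjusted p = 0.222).

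Fat and muscle markers stood as follows beside Car3. Of 10 adipose markers, 1 was tested between genotypes and called higher, the fatty acid binding protein Fabp4, which endothelial cells and macrophages also express. The summed adipose markers ranged over 31.1 to 150 CPM in SB and 2.31 to 12.4 CPM in controls, nearly all of it Fabp4 in SB. In SB animal 1 the fat hormone Adiponectin (Adipoq) was at 0.0517 and 0.0610 CPM and the lipid droplet protein Plin1 at 0, while in piece 2 of control animal 3 Adipoq was at 0.818 CPM, Plin1 at 0.545 CPM and the adipocyte protease Cfd at 1.5 CPM, the highest of the 12 libraries for each. Skeletal muscle markers summed to 9.20 to 14.5 CPM in SB and 12.2 to 18.0 CPM in controls, with 0 of 3 tested markers called by edgeR and muscle actin Acta1 at no more than 0.411 CPM in any library. Muscle creatine kinase Ckm was at 3.57 and 3.42 CPM in SB animal 1, against at most 0.376 CPM in the other 10 libraries. Their part in the level of Car3 was not tested.

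Car5b, Car8 and Car12 were also highest in SB animal 1. Car5b (ENSMUSG00000031373, chrX:163976822-164027997, minus strand), the mitochondrial enzyme found in many tissues, had 10.3 and 8.85 CPM in SB animal 1, 1.39 and 2.11 CPM in SB animal 2 and 2.00 and 1.03 CPM in SB animal 3, against 0.857 to 1.98 CPM in control pieces. Its log2 change was 1.74 (SE 0.80, adjusted p = 0.177). SB animals 2 and 3 overlapped the controls.

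Car8 (ENSMUSG00000041261, chr4:8143362-8239041, minus strand) had 8.48 and 8.18 CPM in SB animal 1, 0 and 0.411 CPM in SB animal 2 and 1.86 and 1.28 CPM in SB animal 3, against 0 to 0.459 CPM in control pieces. It had 12 counts in the 6 control libraries and did not pass the filter on low counts in the genotype comparison. Without that filter its log2 change was 4.71 (SE 1.33, adjusted p = 0.0773), and DESeq2 called it (adjusted p = 9.17e-04).

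Car12 (ENSMUSG00000032373, chr9:66713686-66766845, plus strand), a transmembrane enzyme with its catalytic domain outside the cell, stood on both sides of the controls among SB spleens. It had 14.5 and 16.2 CPM in SB animal 1, 0.583 and 0.308 CPM in SB animal 2 and 0.140 and 0.638 CPM in SB animal 3, against 1.72 to 2.19 CPM in control pieces. SB animal 1 lay above all controls and SB animals 2 and 3 lay below all of them. The genotype comparison over 3 SB animals gave a log2 change of 1.45 (SE 1.40, adjusted p = 0.499), whereas without SB animal 1 it was -2.28 (adjusted p = 0.0121).

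Among SB spleens, the 8 members other than Car6 differed between animals in edgeR's F test, with adjusted p from 2.15e-08 for Car12 to 0.0223 for Car2. So did 70.8% of the 17758 genes tested, so a call in this test is the rule and not a property of the family. Car4 passed the filter on low counts here only through SB animal 3, and Car8 only through SB animals 1 and 3. Each was high in those spleens, so these calls are no support for a difference. Among control spleens 0.557% of genes were called and 0 of the 9 members (edgeR; DESeq2 called 0 of the 8 other than Car6), with Car2 alone at an unadjusted p of 0.0246 and the others at 0.118 to 1.00. The error in these tests is the spread between pieces of a spleen, so they compare these spleens and not genotypes. Car1 and Car2 were not called without the filter on low counts (adjusted p = 0.0561 and 0.115), nor Car2 without SB animal 2 (0.0968), nor Car4 with DESeq2 (0.587). Between SB animals 2 and 3 alone, Car13 still differed (edgeR adjusted p = 0.0423), as did 56.2% of genes tested. Car1, Car2, Car3, Car5b and Car12 had adjusted p of 0.218 to 0.874 there. Car4 and Car8 (adjusted p = 0.0225 and 0.00788) passed the filter in that fit only through SB animal 3, where they were high. Their calls in it are therefore no support.

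Car6 (ENSMUSG00000028972, chr4:150187015-150201332, minus strand) encodes the secreted enzyme of saliva and milk. It had 0.982 and 2.08 CPM in SB animal 1, 2.55 and 0.411 CPM in SB animal 2, and 1150 and 1384 CPM in SB animal 3, against 0.215 to 1.64 CPM in control pieces. The pieces of SB animal 3 held 24735 and 28200 counts of Car6, and the other SB spleens stood within a few CPM of the controls. Averaged per animal, SB animal 3 was at 1527 times the control mean, and SB animals 1 and 2 at 1.79 and 1.55 times. Piece 2 over piece 1 gave Car6 ratios of 2.11, 0.161 and 1.20 in SB animals 1, 2 and 3.

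Per kilobase of exon, Car6 reached the range of the main red cell enzymes in that spleen. SB animal 3 held 706 CPM per kilobase of Car6, 1112 CPM per kilobase of Car1 and 754 CPM per kilobase of Car2. Of the summed CPM per kilobase of all 16 carbonic anhydrase genes, Car6 took 0.133% in SB animal 1, 0.0425% in SB animal 2 and 27.4% in SB animal 3, against 0.111% to 0.275% in controls. Car2 took 61.0%, 67.3% and 29.2% in SB animals 1, 2 and 3, against 62.4% to 69.4% in controls. Car1 took 31.4%, 32.0% and 43.1% in SB animals 1, 2 and 3, against 28.3% to 35.1% in controls. The total over the 16 genes was 619, 1685 and 2581 CPM per kilobase in SB animals 1, 2 and 3, against 125 to 327 CPM per kilobase in controls.

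**Figure D3:**
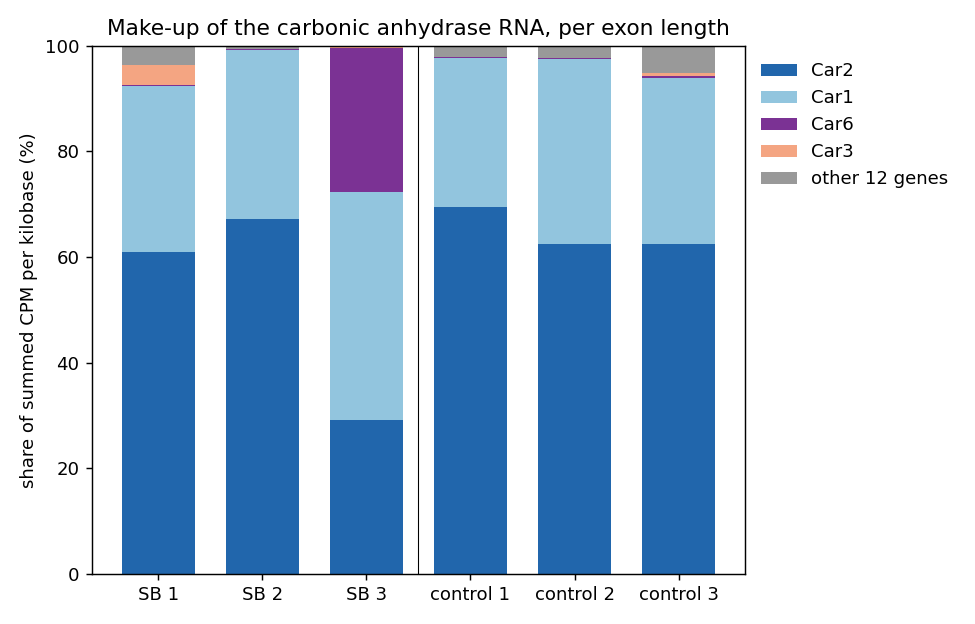
Stacked bars give the share of each gene in the summed CPM per kilobase of exon of 16 carbonic anhydrase genes, for each of 3 SB and 3 control spleens. Car1 and Car2 make up nearly all of it except in SB animal 3, where Car6 takes 27.4%, and Car3 takes 3.76% in SB animal 1.

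Some defining markers of salivary glands, which make Car6, were at or near 0 in SB animal 3. The salivary proteins Dcpp2, Dcpp3, Pip and Muc19 were at no more than 0.0491 CPM in its pieces, and the water channel Aqp5 was at 0 and 0.0981 CPM. Of 10 salivary markers measured, 3 were tested between genotypes and 1 was called lower. The list summed to 6.42 and 7.85 CPM in SB animal 3, the highest of the SB spleens. It summed to 2.58 to 4.11 CPM in the other SB pieces and 7.20 to 14.2 CPM in controls, with Bhlha15 the largest part. The part of salivary cells in the level of Car6 was not tested. Of the 10 gastric markers measured, 2 were tested and both were called higher. The gland mucin Muc6 stood at 34.1 and 41.3 CPM in SB animal 1, 2.62 and 5.39 CPM in SB animal 2, and 363 and 585 CPM in SB animal 3, against 0.215 to 1.09 CPM in controls. The gastric trefoil peptide Tff2, the stomach protein Gkn1 and pepsinogen Pgc were at 0 in SB animal 3.

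The genes on either side of Car6 were not high in the same way. The fructose transporter Slc2a5 and the sugar transporter Slc2a7 on one side were at 0.121 and 0 CPM in SB animal 3. The glycolytic enzyme Eno1, 35389 bases away on the other side, averaged 162 ± 42.6 CPM in SB and 95.3 ± 1.5 CPM in controls (adjusted p = 0.0556), with 209 CPM in SB animal 3. The next gene, the nuclear corepressor Rere, averaged 94.7 ± 22.7 CPM in SB and 269 ± 2.77 CPM in controls (adjusted p = 0.00868).

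The genes most like Car6 over the 12 libraries were Dlk1 (r = 0.992), Phykpl (0.988), Olfm3 (0.988), Spink4 (0.980) and Stk25 (0.980). The imprinted membrane protein Dlk1 was at 305 CPM in SB animal 3, against 0.238 to 0.487 CPM in controls. Each of the 5 was highest in SB animal 3, whose pieces set these correlations, and 1 of the 5 remained with Spearman's rho.

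Car4 (ENSMUSG00000000805, chr11:84957786-84966044, plus strand), the enzyme anchored to the outer cell membrane, had counts in SB libraries only. It had 0 counts in both pieces of SB animal 1, 0 and 4 counts in SB animal 2, and 16 and 18 counts in SB animal 3, against 0 counts in all 6 control libraries. SB animal 3 held 0.868 CPM before scaling, at least 28.0-fold higher than the 0.0310 CPM that 3 counts over the controls would give, a limit that covers counting error only. Its level was near the lower end of detection, and it was not tested between genotypes with the filter on low counts. Without the filter the adjusted p was 0.241, and with DESeq2 it was 0.0963. Genes most like it were Pkd1l3 (r = 0.965), Aqp8 (0.964), Svbp (0.961) and Mospd3 (0.956), each highest in SB animal 3, and its r with Car6 was 0.887. Of its 5 closest genes, 1 remained with Spearman's rho and 2 over the 6 animals.

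The pieces of a spleen differed in Car1 and Car2 in controls. Piece 2, which is section B in controls and section 2 in SB, over piece 1 gave Car1 ratios of 0.896, 1.01 and 0.930 in SB animals 1, 2 and 3, against 1.37, 3.45 and 2.79 in control animals 1, 2 and 3. For Car2 these ratios were 1.01, 0.925 and 0.975 in SB animals, against 1.20, 2.53 and 2.25 in control animals. The 3 control ratios lay above the 3 SB ratios for both genes, with control animal 1 the closest.

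With the animal as a block, the log2 difference of piece 2 over piece 1 in SB was -0.08 for Car1 (SE 0.20, adjusted p = 0.854) and -0.04 for Car2 (SE 0.17, adjusted p = 0.909). In controls it was 1.23 for Car1 (SE 0.22, adjusted p = 0.0159) and 0.92 for Car2 (SE 0.17, adjusted p = 0.0167). The difference between the genotypes was -1.31 for Car1 (SE 0.29, adjusted p = 0.0727) and -0.97 for Car2 (SE 0.24, adjusted p = 0.0860), which did not pass, while DESeq2 called both (adjusted p = 0.0259 and 2.81e-04). Of 16787 genes, 8.82% were called between pieces in controls, 5.82% higher in piece 2, 0.0119% between pieces in SB and 1.23% for the difference. The calls in controls were lost without control animal 2 (Car1 adjusted p = 0.107, Car2 0.133), without control animal 3 (0.0982 and 0.116) and without the filter on low counts (0.0628 and 0.0602).

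Red cell genes as a group stood higher in piece 2 of the control spleens. Of 28 erythroid genes, 26 were called higher in piece 2 of controls and 0 lower, with a median log2 difference of 1.05, against a median of -0.03 and 0 calls in SB (edgeR, with 2 at an unadjusted p under 0.05, and 0 calls by DESeq2). The erythroid list summed to 40270 to 69580 CPM in piece 2 of controls and 19070 to 51710 CPM in piece 1. Beside it, 9 of 16 monocyte and macrophage markers and 7 of 18 mature neutrophil markers were also called higher in piece 2 of controls, as were 8 of 15 endothelial genes and 3 of 9 genes of spleen stroma, of which 1 more was called lower. Their part in the difference of Car1 and Car2 was not tested. Of the other members, Car3, Car5b, Car8, Car12 and Car13 were not called between pieces in either genotype, with adjusted p of 0.133 to 0.916 in SB and 0.0857 to 0.992 in controls. Car13 was lower in piece 2 of all 6 spleens, at 0.658, 0.809 and 0.841 times piece 1 in SB animals 1, 2 and 3, against 0.752, 0.654 and 0.861 times in control animals 1, 2 and 3. Its unadjusted p was 0.00994 in SB and 0.0424 in controls (edgeR), and neither passed after adjustment.

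**Figure D4:**
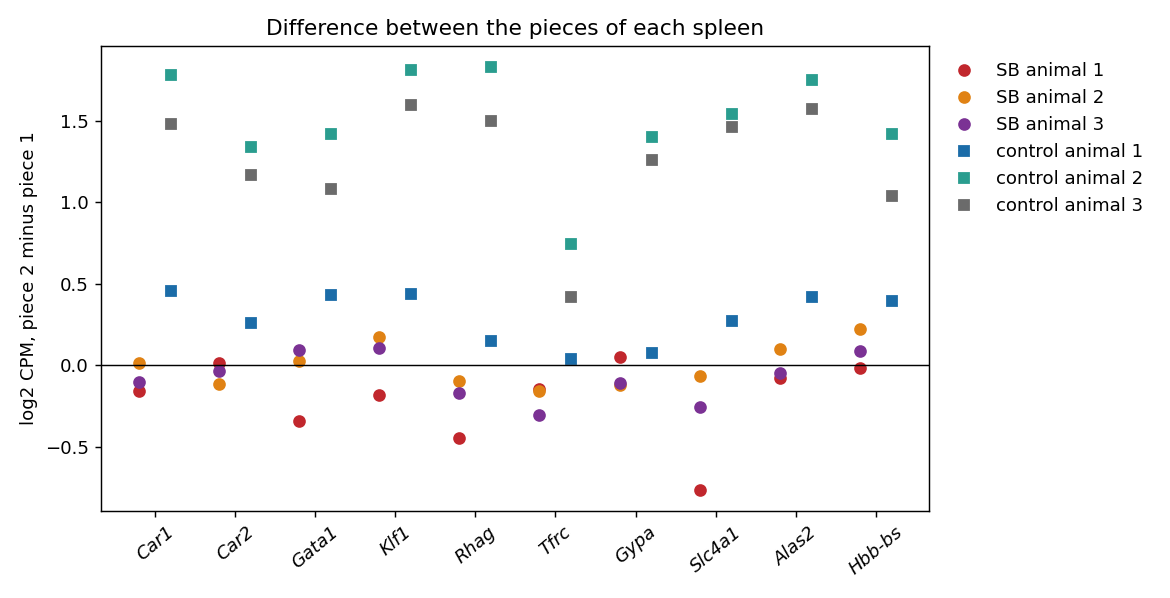
Points give log2 CPM of piece 2 minus piece 1 in each spleen for Car1, Car2 and 8 other erythroid genes, with SB animals as circles on the left of each gene and controls as squares on the right. Car1 and Car2 lie near 0 in SB spleens and above 0 in the 3 control spleens.

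Of the other 7 carbonic anhydrase genes, 4 were tested between genotypes and 0 were called by edgeR, with Car7, Car9 and Car15 at an unadjusted p of 0.0102, 0.0237 and 0.0412, while DESeq2 called 2, Car9 higher and Car7 lower. Car9, a transmembrane enzyme known as a target of the hypoxia response, had 16.4 and 17.7 CPM in SB animal 1, 7.80 and 8.47 CPM in SB animal 2 and 4.74 and 5.20 CPM in SB animal 3, against 2.37 to 4.55 CPM in control pieces. All SB pieces lay above all control pieces, as was the case for 12.9% of genes tested between genotypes. The log2 change of Car9 was 1.49 (SE 0.50, adjusted p = 0.0883, and 0.0247 with DESeq2). Car7, a cytosolic enzyme best known from neurons, was the reverse, with 1.17 to 2.37 CPM in SB pieces and 3.76 to 4.94 CPM in control pieces (log2 change -1.29, SE 0.35, adjusted p = 0.0532).

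Car11, a related protein without the enzyme activity, gave a log2 change of -0.46 (SE 0.61, adjusted p = 0.624) and the membrane-anchored Car15 gave -1.20 (SE 0.46, adjusted p = 0.125). Car5a, Car10 and Car14 had 5, 3 and 13 counts over the 6 SB libraries and 2, 6 and 14 counts over the 6 control libraries. Of the receptor phosphatases that carry a carbonic anhydrase-like domain, Ptprg averaged 6.42 ± 1.13 CPM in SB and 8.59 ± 1.09 CPM in controls (adjusted p = 0.319), and Ptprz1 had 7 counts in SB and 42 in controls.

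Hypoxia genes were given as background to Car9 and Car12, which respond to low oxygen in many cells. Of 12 such genes, 1 was called higher in SB and 0 lower, lactate dehydrogenase Ldha, and the median log2 change was 0.53. For scale, 8.59% of all genes tested were called higher in SB. The list summed to 1432 and 1319 CPM in SB animal 1 and 849 to 1073 CPM in SB animals 2 and 3, against 638 to 666 CPM in controls. Ldha was its largest part: the mean sum in SB was 1.68 times that of controls with Ldha and 1.21 times without it. The oxygen sensor Egln3 was at 157 and 118 CPM in SB animal 1 and at 4.37 to 6.52 CPM in the other SB pieces, against 2.25 to 5.25 CPM in controls.

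Transporters that work beside carbonic anhydrases changed in part. Over all genes, 18.3% of those tested were called between genotypes and 8.59% were called higher in SB. Of 25 genes for bicarbonate, proton and gas transport, 16 were tested, 3 were called higher in SB and 2 lower, with a median log2 change of 0.25. Higher were the lactate exporter Slc16a3, at 39.0 to 43.3 CPM in SB animals and 9.15 to 9.98 CPM in controls (log2 change 2.07, adjusted p = 0.00297), Rhag, and the proton pump subunit Atp4a, at 1.19 to 2.42 CPM in SB and 0.267 to 0.631 CPM in controls (1.85, 0.0461). Lower were Slc4a11, at 0.424 to 0.680 CPM in SB and 6.04 to 7.33 CPM in controls (-3.69, 0.00392), and the anion exchanger Slc4a3, at 0.453 to 2.00 CPM in SB and 7.53 to 8.6 CPM in controls (-2.75, 0.0244). The water channel Aqp1 was at 237 to 1690 CPM in SB animals and 93.3 to 248 CPM in controls and did not pass (2.66, adjusted p = 0.0629).

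Markers of other blood cells also differed in these spleens. Megakaryocyte markers, whose cells share precursors with red cells, summed to 1905 to 7739 CPM in SB and 474 to 1290 CPM in controls. Of these 18 markers 4 were called higher, against 8.59% of all genes tested. B cell markers summed to 526 to 5527 CPM in SB and 19790 to 22170 CPM in controls, with 11 of 12 called lower. The mean sum in SB was 0.105 times that of controls, and 0.0129 times without Ighm, the largest part. Mast cell and basophil markers had their highest sum in SB animal 1, at 885 and 855 CPM, against 51.2 to 76.2 CPM in controls. Gata2 was the largest part over the 12 libraries, and of 9 markers tested 1 was called higher and 1 lower. In SB animal 1 Mcpt8 (2.01 CPM) and Prss34 (1.44 CPM) lay within the control range. Cpa3 (5.16 CPM) and Ms4a2 (6.6 CPM) lay above it. Fcer1a stood at 209 and 249 CPM in the pieces of SB animal 1, against 0.132 to 0.712 CPM in control pieces. Kit stood at 169 CPM in that spleen, against 36.7 to 45.8 CPM in controls. Monocyte and macrophage markers were highest in SB animal 2, at 17110 and 17360 CPM, against 1471 to 2651 CPM in controls. The part of these cells in the levels of Car1, Car2 and the other members was not tested.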

How the data were processed

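Per the labels' protocols, 12 spleen pieces gave unstranded poly-A libraries. The table the authors deposited holds raw counts per Ensembl gene: whole numbers whose totals differ by library. STAR 2.5.3a and limma are named in the submitters' processing notes, with builds mm10 and GRCm38, and the counting mode is not given in the sources used here. Without strand, reads of overlapping genes cannot be told apart; Car1 and Car8 overlap the pseudogenes Gm16399 and Gm11799, which held 9 and 8 counts in all libraries, and no other member overlapped a counted gene. Symbols, coordinates and exon lengths (all exons of a gene merged) came from GENCODE on GRCm38, by gene identifier.

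Counts were added up per animal, and 3 SB were compared with 3 control animals by edgeR 4.0.16 (R 4.3.3, TMM, filterByExpr, robust quasi-likelihood, two-sided, Benjamini-Hochberg adjusted p under 0.05 over all genes tested). Pieces were compared over all 12 libraries, blocking on the animal, since titles give both pieces of a spleen to the same animal; deviations of its pieces correlated at 0.913 to 0.922 in SB and 0.127 to 0.332 in controls. Differences among animals were tested with 1 coefficient per animal. No label says how the animals are related. Scripts were tested on simulated counts. Likeness used log2 CPM with a prior count of 2. Alternatives were DESeq2 1.42.0, other scaling and filters, each piece alone and leaving out each animal; the older form of edgeR's fit and control animal 3 without its piece 2 were added after seeing the data. The limit given for Car4 covers counting error only.

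Members and lists were chosen with earlier results of these data known. Named are all members and relatives, up to 6 called genes per direction of the erythroid and transport lists by adjusted p, the 5 genes most like Car1, Car2, Car4 and Car6 (1 of those for Car4 is not reported here), neighbours that could share reads, and defining markers of other lists; Slc4a1, Hbb-bs, Aqp1, Egln3, the neighbours of Car6 and Car13 and the other erythroid genes plotted were chosen after their values were seen.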

Additional observations from a re-analysis of the deposited data

Results flagged for a closer look

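Of 16 sets of 6 libraries (9 members in 2 genotypes, leaving out Car4 in controls, at 0 throughout, and Car6 in SB, which chose the members), 2 held a library far from the rest by Dixon's test, with a critical value of 0.625. Chance gives about 1 in 20, and the pieces of a spleen are not independent, so a spleen whose pieces both stand apart cannot be picked out in this way. Car3 was at 4.16 CPM in piece 2 of control animal 3, against 0.0538 to 0.677 CPM in the other control pieces, the library that also held the highest Adipoq, Plin1 and Cfd. Car8 was at 0.459 CPM in piece 2 of control animal 2, which is 7 counts, against 0 to 0.136 CPM in the other control pieces.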

How the results depend on the processing

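Counts of called genes moved as follows. Between genotypes 3178 genes were called, and 5546 with DESeq2, 11788 with SB animal 3 alone against controls (1 animal, assumed to vary like the controls), and 554 to 6409 when 1 animal was left out. Between pieces in SB the 2 calls became 14 without the filter, 0 with the older edgeR fit (3367 genes at unadjusted p under 0.05), 325 with DESeq2 and 1 to 725 with an animal left out. Between pieces in controls the 1481 calls became 0 to 1042 with an animal left out. For the difference between genotypes the 206 calls became 475 with DESeq2 and 0 to 534 with an animal left out. Among SB animals the 12575 calls became 8109 to 9697 with an animal left out, and among controls the 99 became 322 with DESeq2 and 19 to 356 with an animal left out. Without the replicate block, the counts of pieces in SB, pieces in controls and their difference were 0, 0 and 0 (edgeR, with 327, 442 and 235 genes at unadjusted p under 0.05), and Car1 and Car2 in controls had log2 differences of 1.13 and 0.76 (adjusted p = 1.00 each). No paired analysis was possible between genotypes because no label links SB and control animals.

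Over the members and lists, 194 alternative values kept their direction and side of the threshold, 28 lost the call, 8 gained it, 9 moved and 5 reversed. Reversed were Car12 between genotypes, at -2.28 without SB animal 1 and -2.35 with SB animal 3 alone, and 3 uncalled piece differences: Car3 in SB (-0.22 to 0.29 with an animal left out, and below 0 in 2 of those fits) and Car3 in controls (-0.028 to 4.19). Car1 between genotypes had an adjusted p of 0.0508 with piece 2 only, and Car2 0.0572 with control animal 3 lacking its piece 2. The cause of these changes was not tested. Genotype and sex cannot be fully told apart, and 3 animals a group limit every genotype call.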
